A study of Fragaria vesca with 12 samples.

Results

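The 5' untranslated region (5' UTR) of an mRNA lies between its cap and its start codon, and the shared 5' UTR peaks are the places in this region where N6-methyladenosine (m6A) was called in both genotypes. A peak is a stretch of transcript enriched by an antibody against m6A. A wild-type (WT) peak was counted as shared if the authors annotated it to the 5' UTR and a peak of the mutant list overlapped it by at least 1 bp on the same chromosome and strand. This held for 2854 of the 3744 WT 5' UTR peaks (76.2%), and these made up 11.9% of all 23966 WT peaks. They lay in 2728 host genes.

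The libraries were made from fruit of the diploid strawberry Fragaria vesca at 27 days post anthesis, of WT plants and of the Fvalkbh10b mutant. Each genotype had 3 libraries of input RNA, the mRNA fragments before immunoprecipitation, and 3 of immunoprecipitated RNA (IP). The allele behind the mutant, its number of lines and any agent given to the plants are not stated in the labels, and the tissue is named only as fruit. The authors deposited 1 peak list per genotype, pooled over its 3 experiments, so no IP library had values of its own and no test between genotypes could be made on the lists.

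In plants m6A is written on mRNA by a methyltransferase complex, read by YTH domain proteins and removed by enzymes of the AlkB family of dioxygenases, to which ALKBH10B belongs. The mark is known to gather near stop codons and in 3' UTRs, and methylation of the 5' UTR has been studied for its relation to translation initiation. Enrichment below is the log2 ratio of IP to input that the authors listed for each peak, and 1 unit is a doubling of IP relative to input. Coordinates are 1-based positions from the authors' files, and their genome build is not given here.

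Across libraries, Pearson correlations over genes were 0.991 to 0.993 within a genotype and 0.895 to 0.897 between genotypes. The only gene annotated with m6A dioxygenase activity, FvH4_2g24110 on chromosome 2, had 30.3, 28.5 and 31.0 FPKM (fragment counts corrected for exon length and library total) in WT input and 3.75, 3.84 and 5.34 in mutant input. It was singled out once its values were known, it is not a host gene, and nothing in the labels ties it to the mutation. Depth is unknown, because the deposited values are FPKM without read numbers. In bulk fruit, fewer cells of a type and less RNA per cell cannot be told apart. Summed FPKM of 58 photosynthesis genes ranged from 554 to 581 over WT libraries and from 3819 to 4015 over mutant libraries, with none of the genes at 0 throughout. For 35 achene and seed markers the WT sums were 707 to 722 and the mutant sums 470 to 503. For 61 genes of lignified vascular tissue they were 625 to 638 and 854 to 901. The part of tissue makeup in the results below was not tested.

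The shared 5' UTR peaks mostly sat close to the gene start, which their choice by 5' UTR annotation largely fixes in advance. Positions could be set for 2833 of them, since 21 lie on genes that are not in the expression table. The 5' end of the peak fell exactly on the annotated gene start in 339, 1 to 100 bp after it in 1056, over 100 and up to 500 bp after it in 1075 and more than 500 bp after it in 346. The other 17 began before the annotated start. Of all shared 5' UTR peaks, 62.4% had a length that was a multiple of 25 bp. Among the named genes, every peak that began exactly on the gene start lay on the plus strand. How far the spacing of peak edges sets the count of exact starts was not tested. The quartiles of the distance were 33, 102 and 250 bp along the genome. The middle of the peak lay before the midpoint of the gene for 2775 (98.0%), and 8 peaks covered at least 90% of their gene. Distances along the genome need not be distances along the mRNA.

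**Figure D1:**
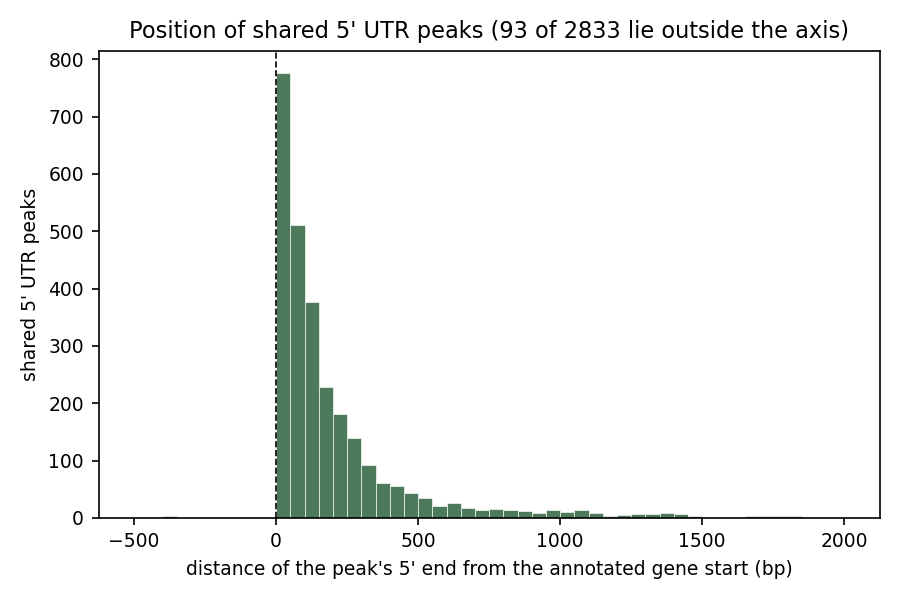
Number of shared 5' UTR peaks (y axis) by distance of the peak's 5' end from the annotated gene start in bp (x axis, bins of 50 bp, dashed line at the start). Counts are highest just after the start and fall with distance, and 93 of 2833 peaks lie outside the axis.

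Most host genes carried 1 such peak (2612), while 108 carried 2, 6 carried 3 and 2 carried 4. The peaks were spread over both strands, with 1459 on the plus and 1395 on the minus strand, and they were 11.3% to 12.9% of the WT peaks of each of the 7 chromosomes. Peak length ranged from 100 to 8871 bp with a median of 493 bp (quartiles 300 and 835). The mutant peak covered a median of 95.5% of the WT peak, 1227 WT peaks lay wholly inside it, and 325 intervals (11.4%) were identical in the 2 lists. At the edge of the rule, 18 peaks overlapped by less than 50 bp and had a median WT enrichment of 1.20. Outside it, 52 of the 890 WT 5' UTR peaks without an overlap had a mutant peak within 100 bp, and their median was 1.18.

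Most of these peaks were enriched by 1 to 2 log2 units in WT. The median over the shared 5' UTR peaks was 1.38 in the WT list, with quartiles of 1.10 and 1.82 and a range of 0.60 to 6.19. The overlapping mutant peaks had a median of 1.51, with quartiles of 1.24 and 1.97 and a range of 0.66 to 6.52. Shared coding exon peaks had WT and mutant medians of 1.50 and 1.70, and shared 3' UTR peaks of 3.08 and 3.13. By strength, 369 peaks had a WT enrichment below 1, 1947 lay from 1 to 2, 419 from 2 to 3 and 119 at 3 or more. The host genes of the weakest class had a median input of 15.9 FPKM and those of the strongest 4.31, and median length rose over the 4 classes from 300 to 475, 736 and 875 bp. Across peaks, Spearman's rho of WT enrichment was -0.28 with input FPKM and 0.41 with length. These are descriptions, since enrichment is itself divided by input, and peaks are not independent replicates.

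The strongest shared 5' UTR peaks with a described protein, and input of at least 1 FPKM in each genotype, lay in genes with varied roles. The first was the endochitinase PR4-like gene FvH4_4g10640, of a family of chitin-cutting defence enzymes, with an enrichment of 5.13 in WT and 5.36 in the mutant. Its peak spans 8058 bp of chromosome 4 (14363798 to 14371855) and begins 3549 bp after the annotated gene start. The SPT5 homolog FvH4_2g14770, a transcription elongation factor, followed with 4.59 and 5.14 over the same 625 bp in both lists (chromosome 2, 12959282 to 12959906).

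Among the 10 strongest, Dicer homolog 1 (FvH4_7g17920), the endoribonuclease that cuts microRNA precursors, had 4.22 in WT and 4.40 in the mutant over an identical interval of 1412 bp on chromosome 7. The DEAD-box RNA helicase 42 gene FvH4_5g26270, on chromosome 5, had 3.98 and 3.95 over an identical interval of 2585 bp, and the CCCH zinc finger protein 31 gene FvH4_2g25690 had 4.05 and 4.39. E2FC (FvH4_2g38580), a factor of the E2F family that regulates cell cycle genes, had 4.10 and 3.91, and the 5' end of its peak was at -623 bp relative to the annotated gene start. The pentatricopeptide repeat gene FvH4_6g40750, of a family that binds organelle RNA, had 4.47 in WT and 3.34 in the mutant, but the 2 intervals shared only 50 bp. Of the 10 peaks, those of FvH4_2g25690, FvH4_5g34190 and FvH4_6g54380 began 5840, 10656 and 4469 bp after the gene start. Those of FvH4_2g14770, FvH4_5g26270, FvH4_6g00360, FvH4_6g40750 and FvH4_7g17920 began 21, 75, 105, 225 and 683 bp after it.

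Input RNA was called higher in the mutant for 7 of these 10 host genes and not called for 3, beside 48.3% higher and 19.1% lower of all genes tested. With libraries rescaled to one median, 3 were higher and 1 lower. Dicer homolog 1 (FvH4_7g17920) was at 13.8, 13.6 and 12.8 FPKM in WT and 13.6, 11.9 and 12.5 in the mutant, and the libraries overlapped (log2 change -0.08, SE 0.08, limma adjusted p = 0.405). With libraries rescaled to one median its change was -0.34 (adjusted p = 0.00387), a call that the unscaled values did not give. The SPT5 homolog (FvH4_2g14770) was at 21.4, 21.6 and 19.4 FPKM in WT and 23.0, 22.3 and 21.7 in the mutant, a change of 0.10 (SE 0.07, limma adjusted p = 0.202). The mutant libraries of SPT5 were just above all WT libraries, and the difference did not pass the test. FvH4_4g10640, the endochitinase gene, rose from 21.4, 23.8 and 21.8 to 33.7, 32.1 and 30.0 FPKM, with no overlap (log2 change 0.50, SE 0.07, limma adjusted p = 1.07e-04).

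Above these in enrichment were peaks on uncharacterized or very lowly expressed genes, singled out once their values were known. FvH4_5g39770 carried the 2 highest WT values, 6.19 and 6.10, and both met a mutant peak of 5.44. Its neighbour FvH4_5g39771 had the highest mutant value, 6.52, against 5.43 in WT. FvH4_7g06591, a glycine-rich cell wall structural protein gene, had 5.94 and 5.03 with a mean input of only 0.83 FPKM in WT and 0.227 in the mutant.

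Most host genes also had a WT peak outside the 5' UTR, with a 3' UTR share near that of all genes with a WT peak. Peaks were matched by gene, so whether they lay on the same mRNA molecules is not known. A WT 3' UTR peak was present in 2162 host genes (79.3%), against 76.2% of all 14032 genes with a WT peak, and a coding exon peak in 807 (29.6%), against 39.8%. In 397 host genes (14.6%) the WT peaks lay in the 5' UTR alone. Where both ends were marked, the 3' UTR peak was the stronger in 2016 of 2162 genes (93.2%), the 5' UTR peak in 142, and 4 were equal. The medians in these genes were 3.17 at the 3' end and 1.37 at the 5' end, with a median within-gene difference of 1.68. Enrichments at the 2 ends were nearly unrelated across genes, which are not independent replicates (Pearson r -0.0011, Spearman rho -0.01).

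**Figure D2:**
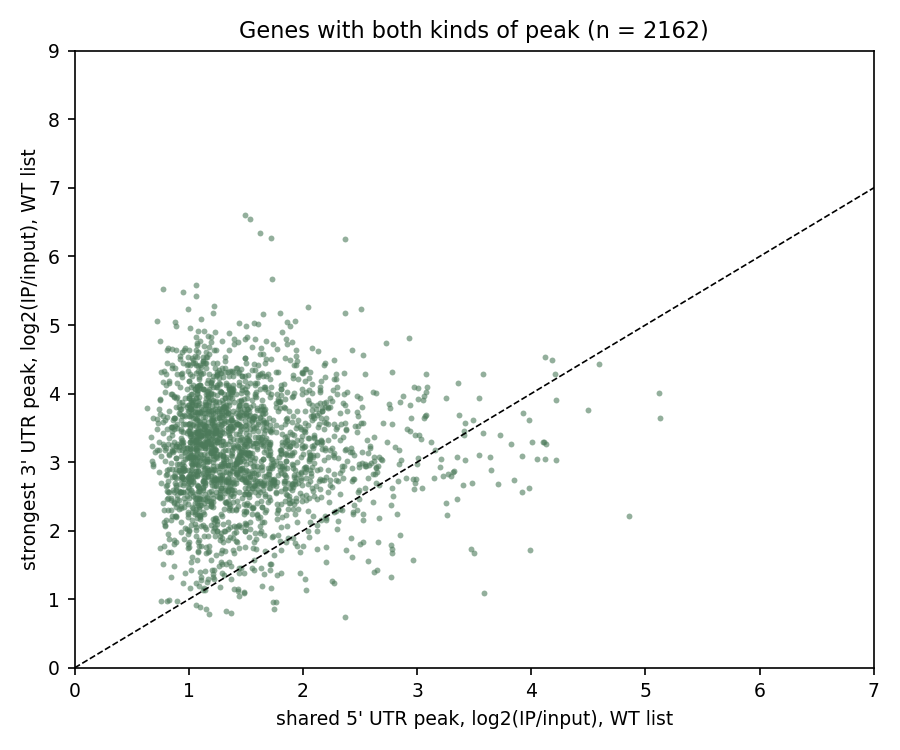
WT enrichment of the strongest 3' UTR peak (y axis, log2 IP over input) against that of the strongest shared 5' UTR peak (x axis, log2 IP over input), 1 point per gene, for 2162 genes with both; the dashed line marks equal values. Points above the line number 2016 and form a broad cloud without slope.

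The strong examples show both orders. The SPT5 homolog (FvH4_2g14770) had 4.59 at the 5' end and 4.43 at the 3' end, and Dicer homolog 1 (FvH4_7g17920) had 4.22 and 3.03. The SNF1-related kinase subunit beta-1 gene FvH4_1g28790, part of an energy-sensing kinase complex, had 1.60 at the 5' end and 3.76 at the 3' end.

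Most shared 5' UTR peaks were slightly more enriched in the mutant list. The value was higher in the mutant list for 2031 peaks (71.2%), lower for 793 and equal for 30. The median within-peak difference, mutant minus WT, was 0.14 (quartiles -0.03 and 0.31). For shared coding exon peaks this median was 0.16 and for shared 3' UTR peaks 0.05. Across peaks the 2 lists had a Pearson r of 0.823 and a Spearman rho of 0.770. No replicate error exists for these values, so whether a difference of this size exceeds the spread between experiments was not tested.

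**Figure D3:**
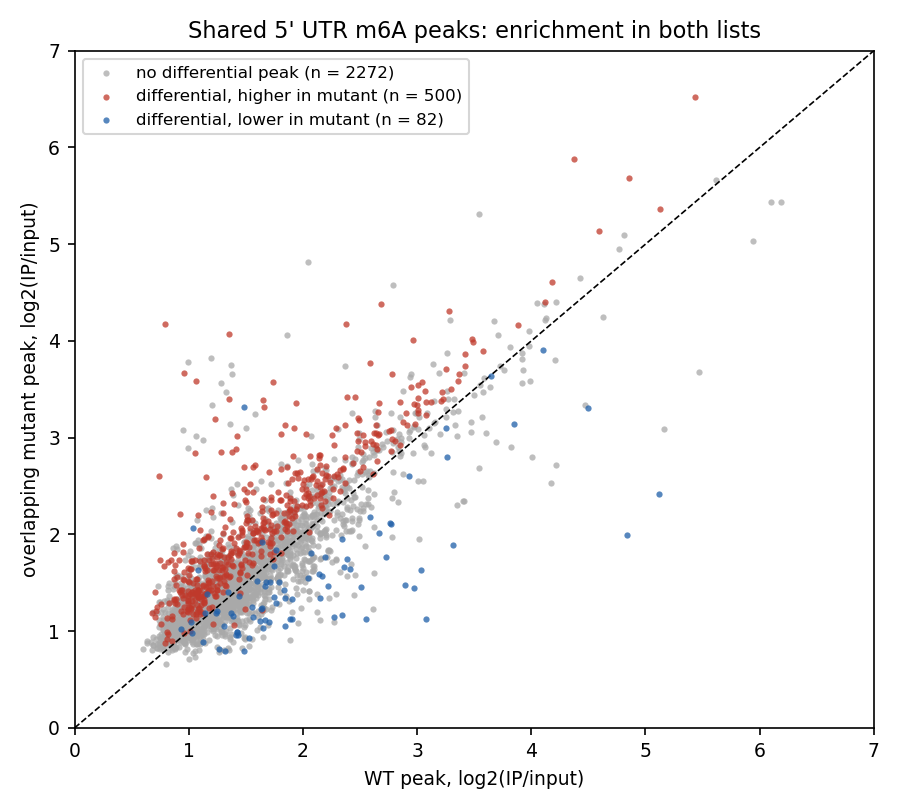
Enrichment in the mutant list (y axis, log2 IP over input) against the WT list (x axis, log2 IP over input) for 2854 shared 5' UTR peaks, with equal values on the dashed line; red marks 500 peaks overlapped by a higher differential peak and blue 82 overlapped by a lower one, in the authors' deposited table. Most points lie at 1 to 2 in both lists, and a scatter of points far above the line includes mutant peaks annotated to the 3' UTR.

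The largest gains in the lists went with a change in the called interval. The difference was at least 1 for 66 peaks and at least 2 for 15. Of those 15, 14 overlapped a mutant peak that was annotated to the 3' UTR, although such mutant peaks made up only 57 of the 2854. Those 57 had a median length of 1882 bp and a median difference of 1.14, while the 2621 peaks that met a 5' UTR mutant peak had a median difference of 0.14. The remaining 176 met a mutant peak annotated to a coding exon, with a median difference of 0.055. In the HscB co-chaperone gene FvH4_6g20780, which acts in mitochondrial iron-sulfur cluster assembly, the WT peak ran from 14317759 to 14320399 on chromosome 6 with 1.86. The mutant peak began at the same base and ran on to 14321423 with 4.06. The nucleolar protein 58 gene FvH4_3g34300 had 1.35 over 375 bp in WT and 4.07 in a mutant peak annotated to the 3' UTR, whereas its change in the authors' deposited table was 0.41. A fall of at least 2 occurred in 3 peaks, the deepest being the flavonoid 3',5'-hydroxylase-like gene FvH4_5g00572, an enzyme class of flavonoid hydroxylation, from 4.84 to 1.99, with a change of -2.86 in the authors' deposited table. Its input was 0.387 FPKM in WT and 2.93 in the mutant, and the gene was singled out once its values were known.

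The authors' deposited table of differential peaks compares the genotypes directly. At its adjusted p under 0.05, higher differential peaks overlapped 500 shared 5' UTR peaks (17.5%), and lower ones overlapped 82 (2.87%). Over all 19723 shared WT peaks, the shares in the authors' deposited table were 19.8% higher and 7.95% lower. For shared coding exon peaks they were 22.1% and 3.23%, and for shared 3' UTR peaks 19.5% and 11.1%. The other 2272 shared 5' UTR peaks had no differential peak at that level, among them 334 with a listed peak above it. The changes were mostly small, with a median of 0.50 among the higher and -0.70 among the lower peaks in the authors' deposited table. Only 52 higher and 24 lower peaks changed by at least 1 there. Median input of the host genes was 14.9 FPKM for the higher peaks, 6.59 for the lower and 10.3 for those without a change, and the part of expression level in these calls was not tested.

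Among peaks on genes of a described protein that averaged 1 FPKM or more in each genotype, the 8 largest rises lay in genes with varied roles. The calcium-transporting ATPase 12 gene FvH4_2g22900, a pump that moves calcium out of the cytosol, had an enrichment of 0.74 in WT and 2.60 in the mutant, and a log2 change of 2.58 in the authors' deposited table. Its peak is 275 bp long, on chromosome 2 from 18783477 to 18783751, and starts 150 bp after the gene start. Input RNA of FvH4_2g22900 was 15.6, 17.7 and 15.5 FPKM in WT and 5.90, 6.38 and 5.41 in the mutant. All mutant libraries were below all WT libraries, and the fall passed the test (log2 change -1.32, SE 0.09, limma adjusted p = 7.99e-07). IP over input and the RNA level share the input libraries, so the 2 values are not independent.

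D-glycerate 3-kinase (FvH4_6g30840), the last enzyme of the photorespiratory cycle in chloroplasts, went from 1.05 in WT to 2.84 in the mutant, with a change of 2.12 in the authors' deposited table. Its peak lies at the annotated gene start on chromosome 6 (23993065 to 23993464). RNA of FvH4_6g30840 was 119, 126 and 124 FPKM in WT and 45.8, 45.1 and 51.0 in the mutant. The groups were far apart, and the fall passed the test (log2 change -1.36, SE 0.05, limma adjusted p = 1.38e-08).

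Ferredoxin-nitrite reductase (FvH4_2g05960), which reduces nitrite to ammonium in plastids, had 1.66 in WT and 3.32 in the mutant, with a change of 1.83 in the authors' deposited table. RNA of FvH4_2g05960 was at 7.01, 6.72 and 6.58 FPKM in WT and 21.3, 21.8 and 18.8 in the mutant, with no overlap (log2 change 1.47, SE 0.08, limma adjusted p = 1.62e-07). The V-type proton ATPase subunit A gene FvH4_6g37000, the catalytic part of the pump that acidifies the vacuole, had 2.68 and 4.38 and a change of 1.71 in the authors' deposited table. The peak of FvH4_6g37000 spans 4793 bp of chromosome 6, and its RNA fell from 98.0, 101 and 99.1 FPKM to 76.1, 76.3 and 73.3 (log2 change -0.40, SE 0.04, limma adjusted p = 1.40e-05).

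The protein phosphatase 2C 25 gene FvH4_3g38990, of a family that removes phosphate from signalling proteins, had 1.10 in WT and 2.05 in the mutant, with a change of 1.78 in the authors' deposited table. Its RNA was 5.05, 4.88 and 5.22 FPKM in WT and 1.12, 1.42 and 1.18 in the mutant, with no overlap (FvH4_3g38990, log2 change -1.44, SE 0.12, limma adjusted p = 2.98e-06). The cationic amino acid transporter 5 gene FvH4_3g13060 had a change of 1.71 in the authors' deposited table and RNA of 5.75 ± 0.56 FPKM over 3 WT libraries and 1.91 ± 0.27 over 3 mutant libraries (mean ± SD). The TFIID subunit 14b-like gene FvH4_2g10790, a part of the general transcription machinery, had 1.35 and 3.40 and a change of 1.98 in the authors' deposited table. RNA of FvH4_2g10790 overlapped between genotypes, at 4.11, 3.57 and 2.42 FPKM in WT and 3.88, 3.40 and 3.29 in the mutant (limma adjusted p = 0.715). The Brevis radix-like 4 gene FvH4_1g08190 had 2.03 and 3.04 and a change of 2.08 in the authors' deposited table, on RNA of 1.15 ± 0.11 FPKM over 3 WT libraries and 2.29 ± 0.29 over 3 mutant libraries (mean ± SD).

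**Figure D4:**
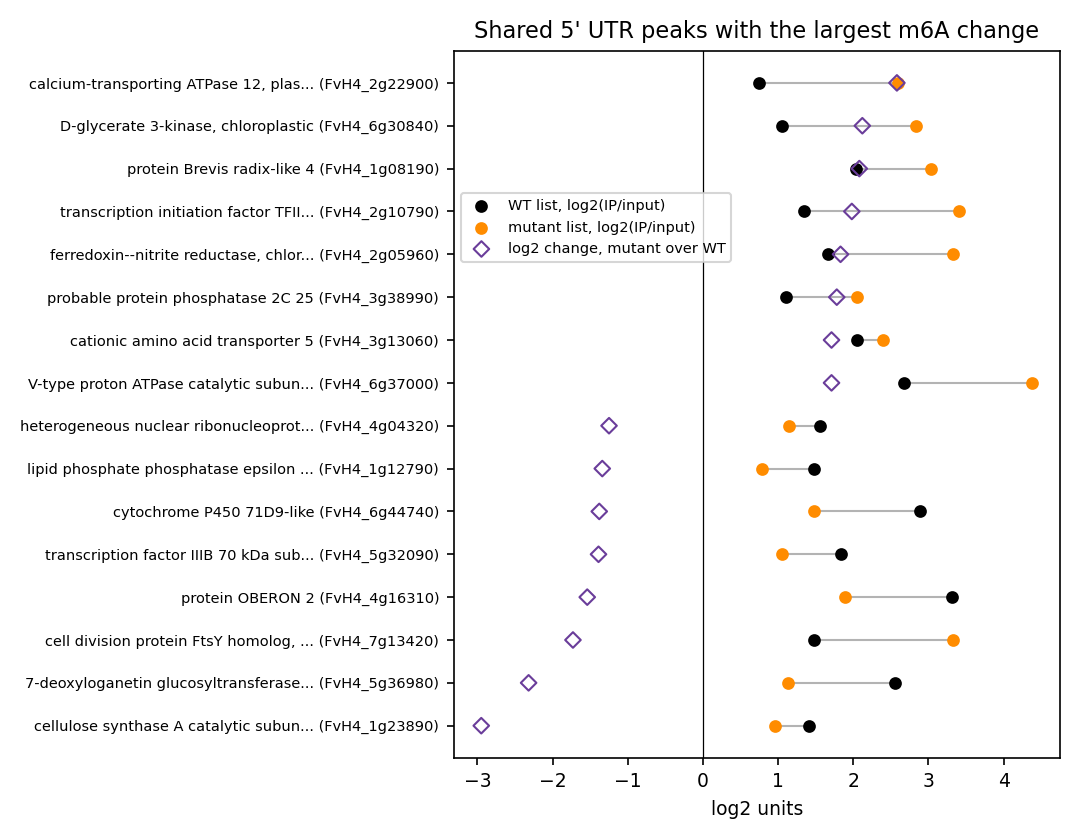
Among shared 5' UTR peaks on genes of a described protein that averaged 1 FPKM or more in each genotype, the 8 with the largest rise and the 8 with the largest fall in the authors' deposited table (diamonds, log2 mutant over WT), with the enrichment in the WT list (black) and mutant list (orange), all on the x axis in log2 units; each has 1 value per peak and no error. The FtsY gene is the one row where the lists (1.48 and 3.32) and the table (-1.73) point opposite ways.

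Falls were fewer. By the same choice of peaks, the largest was in the cellulose synthase A catalytic subunit 6 gene FvH4_1g23890, which makes cellulose of the primary wall, with -2.95 in the authors' deposited table. That value belongs to a 200 bp stretch inside a WT peak of 725 bp, and over the listed peaks the enrichment was 1.41 in WT and 0.96 in the mutant. The stretch ends at 15741669, before the matched mutant peak starts at 15741795, so the 2 do not overlap. RNA of FvH4_1g23890 rose from 14.1, 15.1 and 15.4 FPKM to 21.1, 20.6 and 20.1, with no overlap (log2 change 0.44, SE 0.06, limma adjusted p = 1.90e-04). The OBERON 2 gene FvH4_4g16310, a PHD finger protein known from meristem development in Arabidopsis, had 3.31 in WT and 1.89 in the mutant and -1.54 in the authors' deposited table. Its RNA was 6.40, 6.72 and 5.46 FPKM in WT and 8.83, 8.40 and 8.27 in the mutant (FvH4_4g16310, log2 change 0.40, SE 0.10, limma adjusted p = 0.00475), a call lost when libraries were rescaled to one median (0.16, adjusted p = 0.200).

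The heterogeneous nuclear ribonucleoprotein 1 gene FvH4_4g04320, an RNA-binding protein, had 1.56 in WT and 1.15 in the mutant and -1.25 in the authors' deposited table. Its RNA was 26.3, 26.3 and 26.4 FPKM in WT and 43.5, 40.5 and 41.6 in the mutant, with no overlap (FvH4_4g04320, log2 change 0.65, SE 0.05, limma adjusted p = 2.33e-06). The cytochrome P450 71D9-like gene FvH4_6g44740 had 2.89 in WT and 1.48 in a mutant peak annotated to a coding exon. Its change was -1.38 in the authors' deposited table, on RNA of 1.17 ± 0.04 FPKM over 3 WT libraries and 2.79 ± 0.17 over 3 mutant libraries (mean ± SD). The FtsY homolog FvH4_7g13420, of the chloroplast pathway that inserts proteins into thylakoid membranes, differed between measures. Its change was -1.73 for a 225 bp stretch in the authors' deposited table. That stretch ends at 12034188, before the matched mutant peak starts at 12034496. The listed enrichment of FvH4_7g13420 was 1.48 for the WT peak and 3.32 for that mutant peak, which was annotated to the 3' UTR. An opposite sign of this kind was found for 8 of the 500 higher and 10 of the 82 lower peaks of the authors' deposited table.

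Changes at the 2 ends of the same gene could differ. A differential shared 5' UTR peak and a separate differential 3' UTR peak were found in 168 host genes of the authors' deposited table. Both were higher in 107 and both lower in 14, while the 5' end was higher and the 3' end lower in 31 and the reverse held in 7. In the other 9 genes the peaks of 1 end went both ways.

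Input RNA of the host genes was tested with limma over the 6 input libraries. Of the 2728 host genes, 2710 were in the expression table and 2657 passed the filter of a mean of at least 1 FPKM. In the mutant 1223 were higher (46.0%), 539 were lower (20.3%) and 895 were not called at an adjusted p under 0.05. Over all 15571 genes tested, 48.3% were higher and 19.1% lower, so the host shares were near the background. At least 2-fold changes were called higher for 244 host genes (9.18%, against 14.0% of all genes) and lower for 154 (5.80%, against 6.49%). The unscaled values were shifted, with a median log2 change of 0.25 over all genes tested and 0.20 over the hosts. With libraries rescaled to one median the split of the hosts became 707 higher (26.6%) and 942 lower (35.5%), where all genes gave 30.8% and 32.2%. Quantile normalization gave 754 higher (28.4%) and 890 lower (33.5%), where all genes gave 31.3% and 29.7%. The direction of small RNA changes therefore depends on the scaling. An exact two-sided permutation test on 1 gene with 3 against 3 libraries cannot go below 0.1, and every named gene whose groups did not overlap reached that value.

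The largest RNA changes among host genes were far above the shift. Chlorophyll a-b binding protein 6 (FvH4_7g19750), an antenna protein of photosystem I, rose from 2.21, 2.02 and 2.09 FPKM to 85.3, 91.5 and 82.2 (log2 change 4.81, SE 0.07, limma adjusted p = 1.23e-11). The auxin-responsive IAA14-like gene FvH4_4g02280, a repressor in auxin signalling, rose from 6.94, 6.44 and 6.46 to 183, 190 and 190 FPKM (log2 change 4.63, SE 0.05, limma adjusted p = 2.26e-12). In both genes the genotypes were separated by more than an order of magnitude.

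Photosystem I subunit XI (FvH4_6g00530) rose from 7.34 ± 0.21 to 149 ± 9.75 FPKM, and oxygen-evolving enhancer protein 1 (FvH4_1g14430), a part of photosystem II, from 11.4 ± 1.20 to 172 ± 6.72 (n = 3 libraries each, ± SD). These 3 photosynthesis genes moved with the summed level of the whole green tissue list given above, and the part of green tissue in their change was not tested. Beta-D-xylosidase 7 (FvH4_5g37840), which acts on cell wall xylan, rose from 0.443 ± 0.06 to 21.5 ± 0.63 FPKM, and thaumatin-like protein 1b (FvH4_6g24670), of a defence protein family, from 4.81 ± 0.18 to 81.0 ± 3.87 (n = 3 libraries each, ± SD).

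Expansin-A10 (FvH4_7g25860), of the proteins that loosen cell walls, was the most abundant of the strongly falling hosts. It was at 1823, 1693 and 1707 FPKM in WT and 80.9, 83.9 and 78.1 in the mutant (log2 change -4.41, SE 0.04, limma adjusted p = 8.00e-13). NAC domain-containing protein 8 (FvH4_3g08490), of a plant transcription factor family, went from 93.1, 105 and 102 FPKM to 1.45, 1.08 and 1.67 (log2 change -5.40, SE 0.10, limma adjusted p = 5.51e-11). The groups of both genes were far apart.

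The receptor-like kinase gene STRUBBELIG-RECEPTOR FAMILY 8 (FvH4_3g01460) fell from 381 ± 5.95 to 16.7 ± 1.14 FPKM, and the UDP-rhamnose:rhamnosyltransferase 1 gene FvH4_1g19400, a glycosyltransferase, from 47.8 ± 1.09 to 0.650 ± 0.10 (n = 3 libraries each, ± SD). The 18 kDa seed maturation protein gene FvH4_6g22410 fell from 216 ± 8.02 to 8.05 ± 0.67 FPKM (n = 3 libraries each, ± SD). The summed achene and seed markers were also lower in every mutant library, with 13 of 22 tested markers lower and 6 higher, and the part of achene content in this fall was not tested. That marker list does not include FvH4_6g22410. Of the 35 genes in the list, 0 carried a shared 5' UTR peak, against 12.4% of all genes in the expression table.

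**Figure D5:**
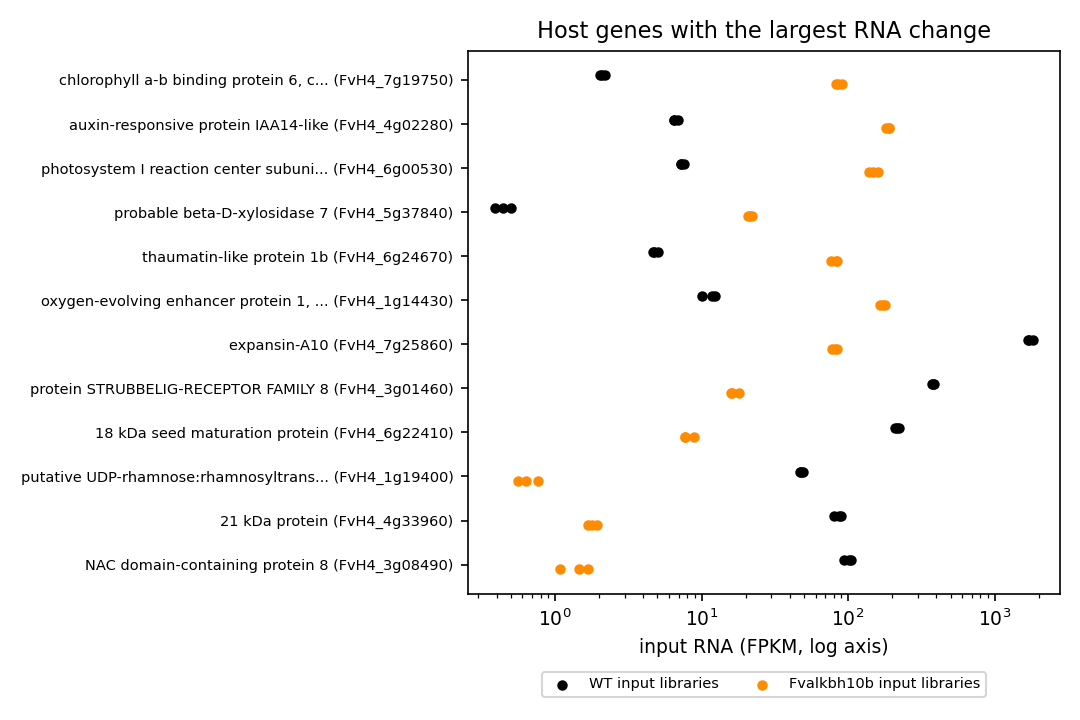
Input RNA in FPKM (x axis, log scale) of the 6 host genes with the largest rise and the 6 with the largest fall, 1 point per library, 3 WT libraries in black and 3 mutant libraries in orange. In every row the genotypes are separate, for example 2.02 to 2.21 against 82.2 to 91.5 FPKM for chlorophyll a-b binding protein 6.

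All 12 of these host genes passed the limma test at an adjusted p under 0.05, unscaled and under both rescalings. None of the 12 had a shared 5' UTR peak with a differential peak at adjusted p under 0.05 in the authors' deposited table. The same was true of 2272 of all 2854 shared 5' UTR peaks, so this count says little about the 12. The enrichment of their peaks was 1.27 in WT and 0.80 in the mutant for expansin-A10 (FvH4_7g25860), 1.29 and 1.07 for chlorophyll a-b binding protein 6 (FvH4_7g19750), and 1.09 and 1.12 for the IAA14-like gene (FvH4_4g02280). The peak of NAC domain-containing protein 8 (FvH4_3g08490) had 0.93 in WT and met a mutant peak of 1.57 that was annotated to a coding exon. Of the 12, beta-D-xylosidase 7 (FvH4_5g37840) had the highest WT enrichment, 2.46, and 1.58 in the mutant.

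The word pattern for the m6A machinery took 17 genes of the expression table, and 3 of these (17.6%) had a shared 5' UTR peak, against 12.4% of all 21927 genes in the table. Methyltransferase-like protein 1 (FvH4_1g22240), annotated to mRNA methylation, had 2.91 in WT and 3.13 in the mutant over a peak of 1950 bp on chromosome 1, and a change of 0.28 in the authors' deposited table. Its RNA was 15.6, 15.9 and 15.0 FPKM in WT and 18.3, 17.7 and 18.6 in the mutant, with no overlap (FvH4_1g22240, log2 change 0.22, SE 0.06, limma adjusted p = 0.0127). With libraries rescaled to one median its change was -0.05 (adjusted p = 0.523), so no direction can be given.

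The alkB dioxygenase gene FvH4_4g23730, of the family that holds the m6A erasers, had 1.26 in WT and 1.70 in the mutant. Its RNA was 2.85, 3.36 and 2.89 FPKM in WT and 2.59, 3.33 and 3.31 in the mutant, and the libraries overlapped (FvH4_4g23730, limma adjusted p = 0.937). The third, FvH4_7g11490, is an enzyme of threonylcarbamoyl modification of tRNA that entered by its name and has no known m6A role. It had 1.49 and 2.36 and a change of 1.29 in the authors' deposited table.

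Counts by gene list below stand beside 17.5% higher and 2.87% lower for all shared 5' UTR peaks in the authors' deposited table. For RNA, 46.0% of all tested host genes were higher and 20.3% lower, or 26.6% and 35.5% with libraries rescaled to one median. No list was tested against these shares. The 20 peaks on ribosomal protein genes had a median of 1.34 in WT and 1.53 in the mutant, of which 6 were higher and 1 lower in the authors' deposited table. Of their 19 genes, 12 had higher RNA and 1 lower, against 8 and 5 with libraries rescaled to one median. The exception, 60S ribosomal protein L23a-1 (FvH4_7g21380), had the strongest peak of the list, 2.77 and 2.86. Its RNA change was -0.11 unscaled (limma adjusted p = 0.0267) and -0.39 with libraries rescaled to one median (limma adjusted p = 2.14e-05). Under quantile normalization it was 0.08 (limma adjusted p = 0.0328). The 17 peaks on translation factor genes had a median of 1.26 and 1.40, with 4 higher and 0 lower in the authors' deposited table.

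Of the 15 peaks on splicing and mRNA processing genes, 4 were higher and 0 lower in the authors' deposited table, and 9 of 15 genes had higher RNA and none lower, against 1 higher and 4 lower with libraries rescaled to one median. The large subunit of the U2 auxiliary factor (FvH4_1g13680), a splicing factor, had 3.37 in WT and 3.66 in the mutant over 1981 bp, and a change of 0.32 in the authors' deposited table. Its RNA rose from 32.8, 31.3 and 34.7 to 47.3, 47.5 and 44.3 FPKM, with no overlap (FvH4_1g13680, log2 change 0.48, SE 0.06, limma adjusted p = 4.35e-05).

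The counts of peaks below depend on the sizes of the lists, and the host share of all genes was 12.4%. Of all shared 5' UTR peaks, 17.5% were higher and 2.87% lower in the authors' deposited table. Hosts were 14.1% of 947 protein kinase genes, 12.5% of 779 transcription factor genes and 9.32% of 955 genes of ubiquitin and the proteasome. In the smaller lists they were 18.2% of type 2C phosphatase, 17.5% of chaperone, 14.0% of chromatin, 13.8% of photosynthesis and 12.7% of auxin genes. Shares were 11.7% for cell wall, 9.46% for ethylene and gibberellin and 8.24% for membrane trafficking genes. The lowest were 6.25% for abscisic acid, 5.95% for flavonoid, 5.15% for sugar and 1.64% for vascular genes. Protein kinase genes held 143 peaks with a WT median of 1.44, of which 23 were higher and 3 lower in the authors' deposited table. RNA was higher for 70 and lower for 27 of 130 tested kinase genes, and 52 and 44 with libraries rescaled to one median. Transcription factor genes held 100 peaks with a WT median of 1.35, of which 23 were higher and 9 lower in the authors' deposited table, and RNA was higher for 46 and lower for 28 of 95 (35 and 38 rescaled). Genes of ubiquitin and the proteasome held 90 peaks with a WT median of 1.27, of which 15 were higher and 2 lower in the authors' deposited table. Their RNA was higher for 38 and lower for 17 of 87 genes, and 19 and 33 rescaled.

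Type 2C protein phosphatase genes held 10 peaks, of which 2 were higher in the authors' deposited table. Their strongest, in protein phosphatase 2C 51 (FvH4_7g31810), had 2.79 in WT and met a mutant peak of 2.94 that was annotated to a coding exon. RNA of FvH4_7g31810 went from 54.9, 58.3 and 53.1 FPKM to 2.08, 2.11 and 1.13, with no overlap (log2 change -4.37, SE 0.14, limma adjusted p = 2.40e-09). Chromatin genes held 23 peaks, 5 higher and 1 lower in the authors' deposited table, with 3.15 and 3.38 on the histone demethylase LSD1 homolog 3 gene FvH4_2g39110 and 2.78 and 2.99 on LHP1 (FvH4_7g08280), a chromo domain protein that binds a repressive histone mark.

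Among hormone genes, 13 peaks lay on auxin genes, with 4 higher and 0 lower in the authors' deposited table. Auxin response factor 6-like (FvH4_6g39140), a transcription factor of auxin signalling, had 2.04 in WT and 2.38 in the mutant and a change of 0.36 in the authors' deposited table. Its RNA rose from 19.5, 19.6 and 18.6 to 37.9, 38.7 and 35.8 FPKM, with no overlap (FvH4_6g39140, log2 change 0.93, SE 0.06, limma adjusted p = 3.65e-07). Of 13 auxin host genes, 9 had higher and 4 lower RNA. Ethylene and gibberellin genes held 14 peaks and abscisic acid genes 3, with 2 and 0 higher in the authors' deposited table and none lower.

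Cell wall genes held 26 peaks with a median of 1.38 in WT and 1.44 in the mutant, of which 6 were higher and 1 lower in the authors' deposited table. RNA was lower for 13 and higher for 9 of 24 tested genes, and 13 and 8 with either rescaling. Cellulose synthase A catalytic subunit 2 (FvH4_2g13380), another maker of cellulose, had 2.04 in WT and 1.72 in the mutant, and its RNA rose from 10.67, 10.86 and 11.04 to 25.8, 26.5 and 25.4 FPKM (log2 change 1.18, SE 0.06, limma adjusted p = 1.03e-07). The groups did not overlap.

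The photosynthesis list held 8 peaks, of which 2 were higher and 1 lower in the authors' deposited table, and 7 of its 8 host genes had higher and 1 lower RNA. Among the 2 higher was that of ferredoxin-nitrite reductase (FvH4_2g05960), an enzyme of nitrite reduction that the word pattern took in. Over the whole list, with or without such a peak, RNA was higher for 46 and lower for 3 of 50 tested genes. The lower peak, in leaf-type ferredoxin-NADP reductase (FvH4_1g11730), the enzyme that makes NADPH at the end of the light reactions, had 1.75 in WT and 1.35 in the mutant and a change of -0.39 in the authors' deposited table. RNA of FvH4_1g11730 rose from 28.6, 26.7 and 27.4 to 66.7, 64.1 and 67.7 FPKM, with no overlap (log2 change 1.23, SE 0.05, limma adjusted p = 1.59e-08). Chaperone genes held 33 peaks (3 higher, 1 lower in the authors' deposited table), membrane trafficking genes 23 (5 higher, 0 lower), flavonoid genes 5 (0 higher, 1 lower), sugar genes 5 and vascular genes 3, the last with none in either direction.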

How the data were processed

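Per the labels' protocols, mRNA from fruit was fragmented, part was precipitated with an anti-m6A antibody, and both were sequenced with paired ends. FastQC, StringTie and HISAT2 appear in the submitters' processing notes, without versions or roles. Peak caller, genome build and annotation: not given in the sources used here. FPKM per gene and input library were deposited by the authors. The deposited log2 values are IP over input for each peak, or mutant over WT for each differential peak. The p-values and adjusted p-values were deposited by the authors, rounded to 2 decimals.

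Deposited peak starts are 0-based and were raised by 1. Where several mutant peaks overlapped a WT peak, the one with the longest overlap was used, and likewise for differential peaks. For the counts, differential peaks were matched by chromosome and strand, without a condition on the gene. Whole-read steps were not seen in low FPKM values, which left depth unknown. Genes averaging 1 FPKM or more were tested on log2(FPKM + 1) with limma 3.58.1 in R 4.3.3, with a trend, genotype as the only term, and Benjamini-Hochberg adjustment over all of them; this scale understates changes of low genes. Replicates are separate biological samples per the series' design text. The overlap and limma steps were tested on simulated data.

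Named genes were the 10 strongest shared 5' UTR peaks, the 8 largest rises and 8 largest falls in the authors' deposited table, the 6 largest rises and 6 largest falls of RNA, the 2 strongest of each of 20 word-pattern gene lists, and each m6A machinery host. All but the last needed, for peaks, a mean input of at least 1 FPKM in each genotype or, for RNA, of at least 5 FPKM in one. The strongest peaks and the rises and falls also needed a described protein, which leaves out larger falls on genes of lower input. The text gives a selection. The rule, the peaks and the lists were chosen with earlier results of these data known. Sequence motifs were not analysed here.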

Additional observations from a re-analysis of the deposited data

How the results depend on the processing

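Requiring a reciprocal overlap of 50%, an overlap of 100 bp, a 5' UTR annotation in both lists or an enrichment of at least 1 in both lists left 2295, 2796, 2654 and 2410 shared peaks. The within-peak difference stayed at 0.14 to 0.15 under the 5 alternatives run. The median WT and mutant enrichment moved to 1.45 and 1.56 with the reciprocal overlap, to 1.55 and 1.64 over identical intervals, and to 1.31 and 1.44 for genes of at least 5 FPKM. In the authors' deposited table, 52 higher and 24 lower peaks changed by at least 1, and 277 and 27 had an adjusted p under 0.01. For genes of at least 5 FPKM the lower count was 47. Requiring the mutant peak to be annotated to the 5' UTR, an alternative chosen after seeing the data, gave 457 higher and 68 lower. Peaks that began within 50 bp of the gene start numbered 919. Host genes with higher and lower RNA numbered 707 (26.6%) and 942 (35.5%) with libraries rescaled to one median, against 30.8% and 32.2% of all genes. With quantile normalization they numbered 754 (28.4%) and 890 (33.5%), against 31.3% and 29.7% of all genes. Leaving out 1 library at a time gave 1119 to 1137 higher and 506 to 521 lower. The replicate block gave 1201 and 536. Same-numbered libraries deviated together with correlations of 0.04, -0.03 and 0.03, so they share only a number. Among 74 named genes under up to 13 alternatives, 835 results kept direction and side of the threshold, 57 lost the call, 13 gained one and 38, in 18 genes, changed sign. Of the 38, 33 were called neither before nor after, and 5 were called in at least 1 of the 2 fits. After rescaling to one median the log2 changes that turned were FvH4_2g14770 (-0.1714), FvH4_2g38580 (-0.0958), FvH4_2g10790 (-0.1502), FvH4_7g13420 (-0.0374), FvH4_5g32090 (-0.0777), FvH4_1g22240 (-0.0502), FvH4_2g22060 (-0.2127), FvH4_6g47610 (-0.0203), FvH4_3g06130 (-0.161), FvH4_2g39110 (-0.064), FvH4_7g08280 (-0.0018), FvH4_3g25850 (-0.1274), FvH4_4g23730 (-0.2009). Under quantile normalization they were FvH4_2g14770 (-0.0587), FvH4_2g38580 (-0.1615), FvH4_2g10790 (-0.2888), FvH4_7g13420 (-0.0171), FvH4_5g32090 (-0.2095), FvH4_7g21380 (0.0783), FvH4_2g22060 (-0.3119), FvH4_4g33281 (-0.0664), FvH4_6g30780 (-0.1252), FvH4_6g47610 (-0.118), FvH4_3g06130 (-0.0784), FvH4_2g39110 (-0.0796), FvH4_3g25850 (-0.1432), FvH4_4g23730 (-0.3573). With 1 library left out, the range crossed 0 at -0.0976 to 0.192 for FvH4_2g10790, -0.0711 to 0.0546 for FvH4_5g10630, -0.0452 to 0.0856 for FvH4_2g22060, -0.1536 to 0.001 for FvH4_1g12300, -0.0338 to 0.1014 for FvH4_4g23730. The cause was not tested. The search for sequence motifs was not run.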
